A study of Mus musculus with 4 samples.

Results

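The amyloid precursor protein family and the proteases that cut it were described here across the cells of the mouse retina. The 9 genes were chosen by symbol, with earlier results of these data known. They are the substrates App, Aplp1 and Aplp2, the beta-secretase Bace1, the gamma-secretase genes Psen2, Ncstn, Aph1a and Psenen, and the alpha-secretase Adam10. All 9 were found among the 32285 genes of every count matrix. The 4 libraries were droplet-based single-cell transcriptomes (10x Genomics), each from 1 retina of 1 mouse at 30 days of age, from 2 NLGF and 2 wild-type (WT) animals, and each genotype was represented by a female and a male. In NLGF animals the gene's own App locus was edited to encode a partly human amyloid beta stretch with disease mutations, so no transgene or foreign promoter drives it. WT animals carry the mouse App allele. The labels give no litter and no sequencing batch, and the spread between 2 mice of 1 genotype also holds differences in preparation.

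APP is a membrane protein that is cut in its outer part either by the alpha-secretase ADAM10 or by the beta-secretase BACE1. The stub that remains is cut within the membrane by gamma-secretase, a complex of presenilin, nicastrin, APH1 and PEN2. Cutting by BACE1 and then by gamma-secretase releases amyloid beta, whereas ADAM10 cuts inside that stretch. APLP1 and APLP2 are paralogs that the same enzymes process but that lack the amyloid beta sequence. In the retina APP is best known from ganglion cells, whose axons transport it along the optic nerve.

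App lies on the minus strand at chr16:84949685-85173766 of GRCm38 (mm10), by the GENCODE M21 annotation. The coding stretch of amyloid beta is shown because the NLGF allele differs from this mouse reference within it and in the bases next to it. It was read from transcript App-201, where its 126 bases (42 codons, in capitals) span exons 14 and 15 of 16, and 15 bases on each side are in lower case. With these flanks, the part in exon 14 lies at chr16:84965670-84965735 (66 bases, 51 of them amyloid beta). The part in exon 15 lies at chr16:84962779-84962868 (90 bases, 75 of them amyloid beta). UMI counts per gene do not tell the alleles apart, so every App value below is the sum of whatever alleles the mouse carried.
App: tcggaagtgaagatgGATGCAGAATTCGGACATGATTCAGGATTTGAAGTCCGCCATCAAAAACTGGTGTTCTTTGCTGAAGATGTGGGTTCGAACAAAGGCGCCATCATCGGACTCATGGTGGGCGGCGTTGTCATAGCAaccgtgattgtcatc

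The paralogs Aplp1 (chr7:30434982-30445535, minus strand) and Aplp2 (chr9:31149557-31211815, minus strand), and Adam10 (chr9:70678997-70780229, plus strand), overlap no other annotated gene. Other members share bases with protein-coding neighbours on the opposite strand. Bace1 (chr9:45838580-45864399, plus strand) shares 975 bases with Rnf214, and Ncstn (chr1:172066013-172082795, minus strand) shares 267 with Copa. Aph1a (chr3:95893969-95898288, plus strand) shares 521 bases with Car14, and Psenen (chr7:30561863-30563627, minus strand) shares up to 327 with U2af1l4 and Gm49396. Psen2 (chr1:180227004-180263438, minus strand) overlaps 1 antisense gene, and App overlaps 5 non-coding genes or pseudogenes on the opposite strand. Whether counting used strand is not stated in the labels or file headers, so reads of such a pair may not be told apart.

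In all, 35191 barcodes carried 85860041 UMIs, and the median barcode held between 945.5 and 1168.5 UMIs by library. After filters and removal of the barcodes scored as likeliest doublets, 7156 and 7964 cells of NLGF and 8093 and 8118 cells of WT retinas remained. They formed 39 clusters, of which 35 fell into 11 classes named from markers. The members were left out of the genes used for clustering. Rods made up between 81.0% and 83.0% of the cells of each library. The 7 tested classes, each with at least 10 cells in every library, were ganglion cells, amacrine cells, cone bipolar cells, rod bipolar cells, Müller glia, cones and rods. Horizontal cells, microglia, endothelial cells and pericytes are only described. Across libraries, 132 barcode sequences occurred more than once. Levels are counts per 1000000 UMIs of the class in 1 library (CPM), and a level averaged over libraries is given with its SD (n = 4).

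App differed widely between the retinal classes. Ganglion cells held 818 and 1095 CPM in NLGF and 884 and 1004 CPM in WT retinas, with 950 ± 124 CPM over the 4 libraries. Cone bipolar cells followed with 663 ± 21.9 CPM, amacrine cells with 331 ± 32.5 CPM and Müller glia with 296 ± 25.9 CPM. Within each library, and across them, ganglion cells were above cone bipolar cells and these were above amacrine cells, while the ranges of amacrine cells and Müller glia overlapped. Cones held 35.0 ± 7.75 CPM, rods 16.4 ± 2.94 CPM and rod bipolar cells 8.35 ± 5.40 CPM. Of the 210 App UMIs of cones, 60 came from a finer cluster of 17 cells with 203 CPM of App and 1385 CPM of cone bipolar markers. In an alternative chosen after the data were seen, cones without that cluster held 26.2 ± 3.88 CPM. Müller glia thus lay above cones and cones above rods without overlap, and rods and rod bipolar cells overlapped. The highest class mean was 114 times the lowest, and 94.4% of the 10313 genes that reached 20 CPM in a class had a lower ratio (median 4.27). For these ratios very low class means were raised to a floor. This caps the ratio of genes whose highest level is low, so the share partly reflects how abundant App is.

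**Figure D1:**
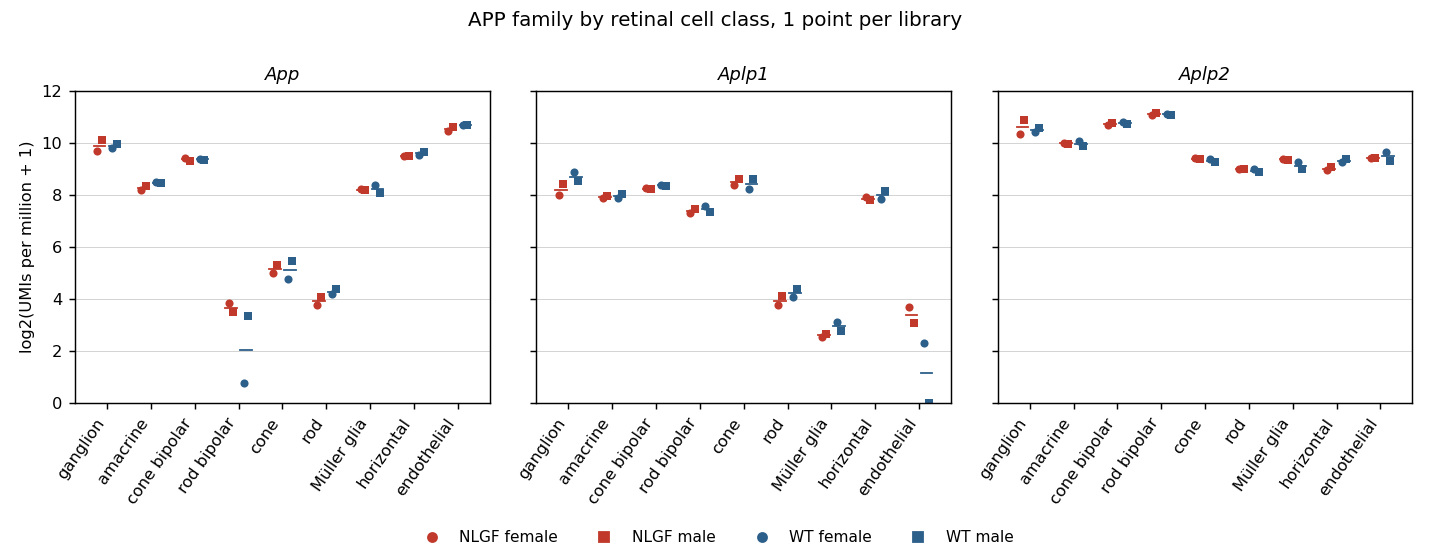
Levels of App, Aplp1 and Aplp2, as log2(CPM + 1), by retinal cell class, with 1 point per library, NLGF left of WT, circles for females, squares for males and a short line at the mean of each genotype. App is high in ganglion, cone bipolar, horizontal and endothelial cells and low in photoreceptors and rod bipolar cells, Aplp1 is low in rods, Müller glia and endothelial cells, and Aplp2 is high in every class shown.

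Ganglion cells were few, and their 22-cell deep cluster held 869 CPM where the 89-cell shallow one held 1381 CPM. The class level rested mostly on the deep cluster, with 902 App UMIs against 284 in the shallow one. The deep cluster had 7 and 8 cells in NLGF and 2 and 5 cells in WT retinas, and 1 cell held 123 App UMIs. Amacrine markers summed to 5818 CPM in the deep cluster and 374 CPM in the shallow one, against 7703 CPM in amacrine cells. Their part in the App level was not tested.

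The 2 bipolar types differed widely in App. Cone bipolar cells held 690 and 639 CPM of App in NLGF and 671 and 653 CPM in WT retinas, whereas rod bipolar cells held 13.3 and 10.4 CPM in NLGF and 0.707 and 9.07 CPM in WT retinas. The rod bipolar level was 1.26% of the cone bipolar one, and the summed markers of cone bipolar cells stood in rod bipolar cells at 2.12% of their level in cone bipolar cells. In rods these shares were 2.47% for App and 1.26% for the cone bipolar markers. The part of transcripts from other cells in these low App levels was not tested.

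App in rods also went with the depth of the barcodes. The deepest of the 5 rod clusters, with a median of 2251 UMIs per cell and rod phototransduction genes leading, held 8.7 CPM, and the other 4, with medians between 720 and 1300 UMIs, held 16.1 to 36.4 CPM. Amacrine markers summed to 57.1 CPM in the deepest cluster and to 103 to 172 CPM in the others.

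Cones were not uniform in App. Mouse cones make a short-wavelength opsin (S opsin, Opn1sw) and a medium-wavelength opsin (M opsin, Opn1mw), often both in 1 cell, with S opsin prevailing in the ventral retina. The 631 cones with at least 10 opsin UMIs, outside 1 cluster of 17 cells that held bipolar markers, were divided by the S share of their opsin UMIs. Cones with 50 to 90% S opsin held 48.1 CPM of App (103 UMIs in 239 cells, 95% Poisson interval 39.2 to 58.3), and those with 90 to 99% held 62.8 CPM (36 UMIs in 64 cells, interval 44.0 to 86.9). Cones with under 10% S opsin held 3.03 CPM (6 UMIs in 202 cells, interval 1.11 to 6.60), those with 10 to 50% held 4.59 CPM (2 UMIs in 45 cells, interval 0.556 to 16.6), and those with over 99% held 5.31 CPM (3 UMIs in 81 cells, interval 1.09 to 15.5). In these groups App lay mostly in cones with 50 to 99% S opsin. Even there, an App UMI was seen in only 25.9% of the cells with 50 to 90% and 34.4% of those with 90 to 99%. Cones with 10 to 50% S opsin also carried both opsins (2559 CPM of Opn1sw and 5266 CPM of Opn1mw) but held little App. The groups with almost only M or only S opsin held little as well. One finer cone cluster with 12009 CPM of Opn1sw and 64.5 CPM of Opn1mw had no App UMI in 65 cells, which allows up to 7.43 CPM (95% Poisson limit).

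In each library both groups between 50 and 99% S opsin lay above the other 3. In cones with 50 to 90% S opsin App was at 54.1 and 51.0 CPM in NLGF and 48.1 and 37.8 CPM in WT retinas. In cones with under 10% S opsin it was at 4.49 and 5.38 CPM in NLGF and 2.98 and 0 CPM in WT retinas, and with over 99% it was at 5.97 and 7.55 CPM in NLGF and 8.62 and 0 CPM in WT retinas. Cones with 90 to 99% S opsin varied more, at 50.7 and 89.7 CPM in NLGF and 30.3 and 84.2 CPM in WT retinas. Cone bipolar markers summed to 11.7 and 8.72 CPM in the 2 App-holding groups, 8.59 CPM with under 10% S opsin and 40.7 CPM with over 99%. The opsin limits were set after the values were seen, so no test was made, and the intervals cover counting error only.

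**Figure D2:**
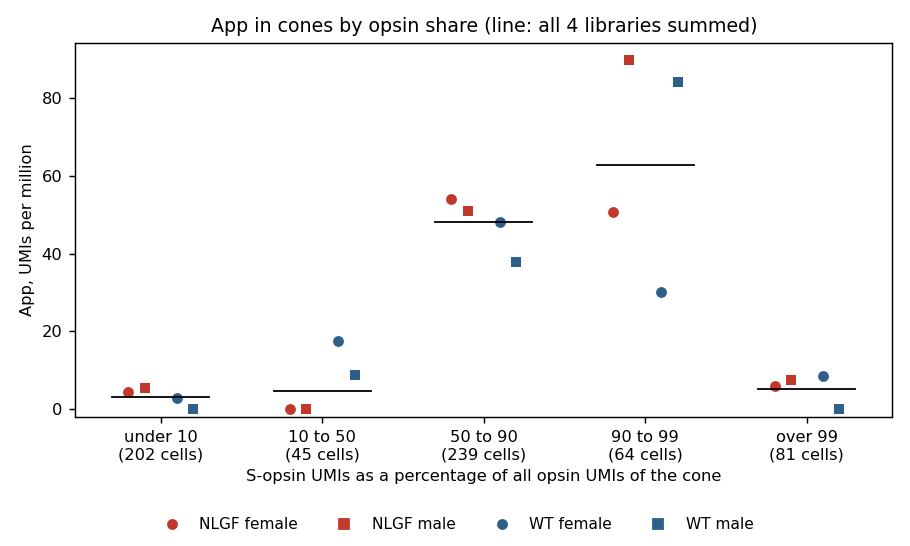
App in CPM in cones grouped by the S-opsin share of their opsin UMIs, with 1 point per library, NLGF left of WT, and a line at the 4 libraries summed. The groups with 50 to 90% and 90 to 99% S opsin stand at 48.1 and 62.8 CPM, against 3.03 to 5.31 CPM in the other 3.

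Amacrine cells were not uniform either. Across 15 amacrine clusters App ranged between 15.1 and 1496 CPM. The 2 lowest were a cluster led by Tunar and Npnt (22 cells, 15.1 CPM) and a cluster led by Cxcl14 that also had Gad2, a GABA-synthesising enzyme, among its leading genes (65 cells, 17.3 CPM). The highest was led by Slc6a9, the glycine transporter, and Lgr5 (28 cells, 1496 CPM), and the cluster led by Ebf3 and Nhlh2, with Slc6a9 also among its leading genes, held 766 CPM in 89 cells. Low App did not go with GABA genes throughout. Clusters with Gad1, related to Gad2, among their leading genes held 291 CPM (77 cells, led by Cbln2 and Tac1) and 222 CPM (23 cells, led by Pantr1 and Pou3f3). The Ebf3 and Nhlh2 cluster had 716 and 719 CPM in NLGF and 797 and 855 CPM in WT retinas, against 22.5 and 24.8 CPM in NLGF and 4.7 and 13.6 CPM in WT retinas for the Cxcl14 cluster. The Tunar and Npnt cluster had 5 App UMIs, of which 4 were in 1 cell. Depth per cell differed as well, since the Cxcl14 cluster had a median of 18335 UMIs per cell and the Slc6a9 and Lgr5 cluster 4784.

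**Figure D3:**
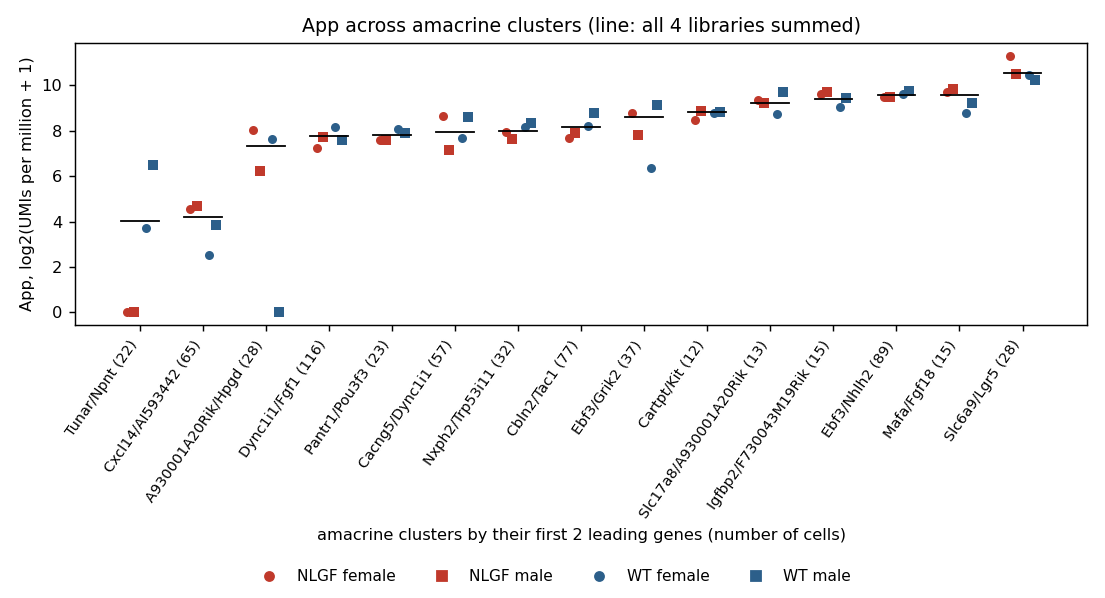
App, as log2(CPM + 1), in the 15 amacrine clusters named by their first leading genes with cell numbers in brackets, 1 point per library, NLGF left of WT, and a line at the 4 libraries summed. Most clusters lie between 161 and 768 CPM, with the Tunar and Cxcl14 clusters at 15.1 and 17.3 CPM and the Slc6a9 cluster at 1496 CPM.

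Finer clusters of cone bipolar cells were closer together, with App between 467 and 971 CPM in all 14. The highest was led by Ptprt and Ngfr (209 cells) and the lowest by Igfn1 and Sox5 (123 cells). In the vasculature, endothelial cells held 1410 and 1562 CPM in NLGF and 1630 and 1632 CPM in WT retinas, from 9 to 21 cells a library. That was above every tested class in all 4 libraries, although pericyte markers were among the leading genes of 1 of the 2 endothelial clusters. Horizontal cells, from 9 to 22 cells a library, held 753 ± 41.5 CPM, and pericytes 536 ± 25.4 CPM from 2 to 8 cells a library. Microglia, from 6 to 27 cells a library, held between 42.7 and 156 CPM on 1 to 10 App UMIs per library.

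Aplp1, the family member best known from neurons, was found in every tested neuron class, least in rods. Ganglion cells held 358 ± 90.2 CPM, cones 350 ± 43.2 CPM and cone bipolar cells 316 ± 17.2 CPM, with neighbours in this order overlapping. Amacrine cells at 245 ± 12.2 CPM and rod bipolar cells at 171 ± 14.0 CPM each lay below the class before without overlap. Rods held 12.5 and 16.4 CPM in NLGF and 15.8 and 19.8 CPM in WT retinas, and Müller glia 4.86 and 5.38 CPM in NLGF and 7.75 and 5.85 CPM in WT retinas. Cones thus had over an order of magnitude more Aplp1 than rods, both being photoreceptors. Aplp1 in rods averaged 16.1 CPM, 11.3 CPM with only cells of at least 1000 UMIs, and 20.7 CPM as a mean over cells. The part of transcripts from other cells in this low level was not tested. Within Müller glia the deep cluster (median 9413.5 UMIs) held 3.6 CPM and the shallow one (median 805 UMIs) 22.9 CPM, and cone bipolar markers summed to 8.31 and 84.4 CPM in the same 2 clusters.

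Aplp2, the second paralog, was detected in every named class. Rod bipolar cells led with 2169 and 2256 CPM in NLGF and 2241 and 2138 CPM in WT retinas. Cone bipolar cells held a mean of 1715 CPM, ganglion cells 1525 ± 252 CPM and amacrine cells 1009 ± 55.1 CPM. The first of these lay below rod bipolar cells in every library, and its range overlapped that of ganglion cells. Cones at 654 ± 32.9 CPM, Müller glia at 611 ± 74.6 CPM and rods at 499 ± 18.7 CPM closed the order, with overlapping neighbours. By the mean over libraries, rod bipolar cells held the most Aplp2 and the least App of the tested classes. For App their range overlapped that of rods, which in the NLGF female were lower (12.8 CPM, against 13.3 CPM in rod bipolar cells), and the mean includes the WT female with 1 App UMI. Among the finer clusters of cone bipolar cells Aplp2 was lowest, at 688 and 791 CPM, in the 2 with the most Grik1, a kainate receptor subunit of OFF bipolar cells (1888 and 1858 CPM). The other 12 held between 1007 and 2649 CPM, among them 1 with 1557 CPM of Grik1 and 1635 CPM of Aplp2. In rods the deepest cluster held 727 CPM, against 368 CPM in the largest shallow one.

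Set against the mean of the other 6 tested classes, with library as a block, 38 of 63 member and class contrasts passed an adjusted p of 0.05 in edgeR's quasi-likelihood test, 21 higher and 17 lower. Calls were common among all 13171 genes of that fit. In Müller glia 6 members were higher, where 35.4% of all genes were, and 3 were lower, where 33.4% were. Cone bipolar cells had 4 members higher (30.6% of all genes) and 1 lower (21.1%), and rod bipolar cells 4 higher (27.1%) and 3 lower (28.9%). For ganglion cells the count was 3 higher (26.3%), and amacrine cells had 2 higher (32.1%) and 1 lower (25.7%). Photoreceptors had fewer members higher, with 1 in cones (28.7%) and 1 in rods (45.1%), and had 5 lower in cones (28.4%) and 4 lower in rods (30%).

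The substrates gave the largest of these contrasts. App was higher in ganglion cells by 3.53 ± 0.10 on the log2 scale (SE, adjusted p = 1.16e-31) and lower in rod bipolar cells, at -4.36 ± 0.19 (adjusted p = 3.38e-25). It was also higher in cone bipolar cells (2.74), Müller glia (1.65) and amacrine cells (1.47), and lower in rods (-3.03) and cones (-1.999, or -2.44 without the 17-cell cone cluster). Aplp1 was lowest against the rest in Müller glia (-4.79 ± 0.16, adjusted p = 2.85e-30) and rods (-2.89), and highest in cones (2.06) and ganglion cells (1.961). Aplp2 was higher in rod bipolar cells (1.37), cone bipolar cells (0.69) and ganglion cells (0.67).

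Bace1, the protease that starts amyloid beta release, was highest in rods. Rods held 98.3 and 100.5 CPM in NLGF and 95.9 and 81.9 CPM in WT retinas, above every other tested class in all 4 libraries. Cone bipolar, rod bipolar and amacrine cells, cones and ganglion cells held means of 58.7 to 71.0 CPM with overlapping neighbours, and Müller glia were lowest at 35.2 ± 2.81 CPM without overlap. Against the other classes Bace1 was higher in rods by 0.92 ± 0.06 (adjusted p = 1.31e-18) and lower in Müller glia, at -0.89 ± 0.10 (adjusted p = 1.78e-11). The rod level differed between rod clusters. The deepest held 61.0 CPM, which is within the range of the other neurons, and the largest shallow cluster 122 CPM. With only cells of at least 1000 UMIs rods held 79.9 CPM, still the highest class mean.

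**Figure D4:**
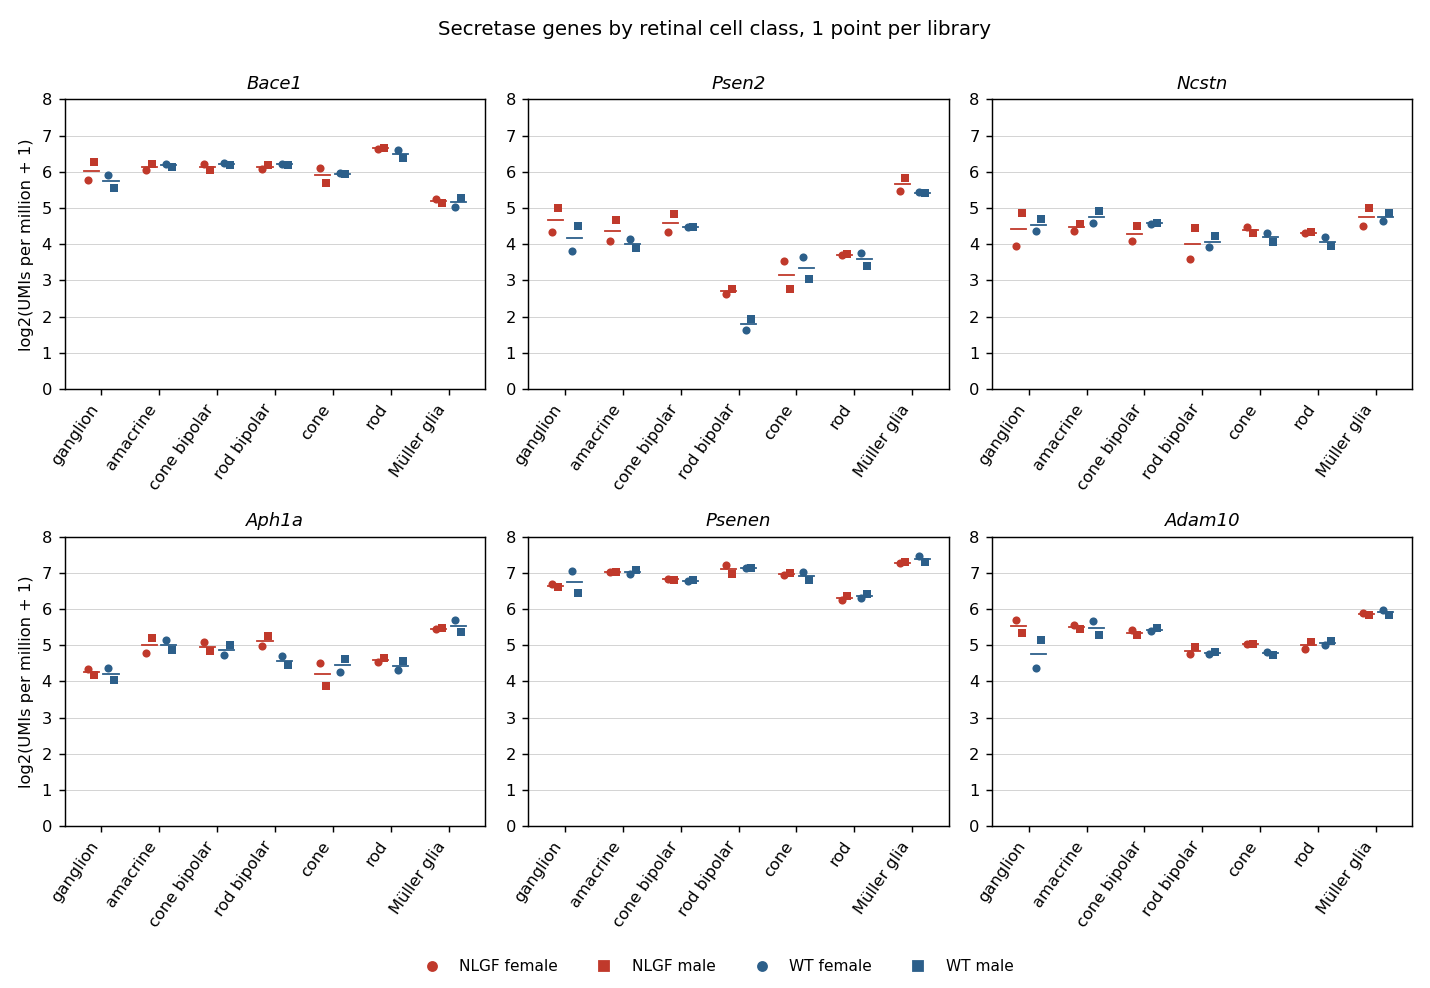
Levels of the secretase genes, as log2(CPM + 1), in the 7 tested classes, with 1 point per library, NLGF left of WT, and a short line at the mean of each genotype. Rods are highest for Bace1, and Müller glia are highest for Psen2, Aph1a, Psenen and Adam10 and lowest for Bace1.

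Psen2, which encodes a presenilin, the catalytic part of gamma-secretase, was highest in Müller glia among the tested classes. Müller glia held 43.7 and 55.7 CPM in NLGF and 42.6 and 41.5 CPM in WT retinas. All 4 libraries were above every other tested class, and the next class, cone bipolar cells, held 22.4 ± 3.71 CPM. Ganglion cells at 21.3 ± 7.40 CPM and amacrine cells at 17.7 ± 4.64 CPM overlapped with it, and rods held 11.6 ± 1.35 CPM, cones 8.76 ± 2.68 CPM and rod bipolar cells 3.99 ± 1.79 CPM on 3 to 9 UMIs a library. Psen2 was higher in Müller glia than in the other classes by 1.97 ± 0.12 (adjusted p = 1.87e-19) and lower in rod bipolar cells, at -2.16 ± 0.24 (adjusted p = 9.66e-11). Deep and shallow Müller clusters held 50.03 and 15.7 CPM.

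The other 3 gamma-secretase genes were found at more even levels across the tested classes. Nicastrin (Ncstn), which receives the substrate, ranged there in class means between 15.9 and 26.4 CPM with all neighbours overlapping. Only 6.56% of the 10313 genes had a smaller ratio of highest to lowest tested class. Ncstn was still called higher in Müller glia than in the other tested classes (0.53 ± 0.13, adjusted p = 0.000411, edgeR). The 4 untested classes, on few cells and with libraries summed, lay above all these means. Microglia held 71.2 CPM of Ncstn, pericytes 60.1 CPM, endothelial cells 52.4 CPM and horizontal cells 36.8 CPM. Aph1a, the scaffold of the complex, was highest among the tested classes in Müller glia. They held 44.0 ± 4.36 CPM, against 31.1 ± 4.39 CPM in amacrine cells, without overlap (0.94 ± 0.12, adjusted p = 1.09e-09, edgeR). Of the untested classes, with libraries summed, endothelial cells held 67.2 CPM, microglia 55.9 CPM, horizontal cells 29.8 CPM and pericytes 0 CPM of Aph1a. The antisense neighbour of Aph1a, the Müller glia marker Car14, averaged 834 CPM in Müller glia. It averaged 1.15 to 5.36 CPM in the other tested classes, and its part in the Aph1a counts was not tested. Psenen, which encodes PEN2, averaged 160 ± 10.7 CPM in Müller glia and 79.6 ± 4.26 CPM in rods, the highest and the lowest tested class. Deepest rods held 120 CPM of Psenen, against 33.8 to 62.2 CPM in the 4 other rod clusters.

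Adam10, the alpha-secretase, was also highest in Müller glia among the tested classes. They held 57.8 and 56.2 CPM in NLGF and 62.0 and 56.1 CPM in WT retinas, and the other classes averaged between 27.2 CPM in rod bipolar cells and 44.1 CPM in amacrine cells with all neighbours overlapping. The Müller contrast was 0.82 ± 0.09 (adjusted p = 7.05e-11). Outside the tested classes endothelial cells held 478 and 303 CPM in NLGF and 315 and 374 CPM in WT retinas, and microglia 161 ± 21.9 CPM. Müller glia were therefore called higher for Psen2, Ncstn, Aph1a, Psenen, Adam10 and App, and lower for Bace1, Aplp1 and Aplp2.

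For each member the 3 genes with the most similar pattern were taken from 10469 genes, by Pearson's r of log2(CPM + 1) over the 28 sums of class and library. The 28 points share 4 animals and 7 classes, so r is given as a description. App went with Pcdh1 (r = 0.985), Pcdh9 (0.954) and Apba2 (0.949), the last of which encodes an adaptor that binds the APP tail. Aplp1 went with Scg3 (0.981), Sphkap (0.980) and Dscam (0.962), and Aplp2 with Hecw1 (0.952), Slitrk3 (0.944) and Mark4 (0.941). Bace1 was closest to Usp34 (0.910), Ppargc1b (0.907) and Ccser1 (0.903), and Psen2 to Dach1 (0.919), Tbc1d9 (0.897) and Trpm3 (0.894). For Aph1a the genes were Zfp532 (0.904), Ezr (0.879) and Tspan15 (0.878), for Psenen Zhx2 (0.893), Itm2b (0.880) and Mthfd2l (0.879), and for Adam10 Rassf4 (0.918), Rit1 (0.909) and Dock4 (0.905). Ncstn had the weakest likeness, with Osbpl5 (0.742), Phkb (0.738) and Sox5 (0.738).

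Between the genotypes no member passed the test in any class. The question was whether the knock-in allele came with altered mRNA of App, its paralogs or its proteases. NLGF was compared with WT within each class by edgeR's quasi-likelihood test with Benjamini-Hochberg adjustment over all genes of the class, from 2 libraries each. Of 59 member tests in the 7 classes 0 had an adjusted p under 0.05, 5 had an unadjusted p under 0.05, and the lowest adjusted p was 0.528. DESeq2 called 0 of 63, with 0 at an unadjusted p under 0.05. Among all genes, edgeR gave an unadjusted p under 0.05 for 1169 of 11124 in Müller glia and 1097 of 12434 in rods. The counts were 784 of 11695 in cone bipolar, 603 of 9334 in rod bipolar and 488 of 11151 in amacrine cells. Cones had 571 of 9434 and ganglion cells 163 of 5713. Few genes of any kind were called by edgeR in these fits, which held genotype only and no term for sex. Müller glia had 104 (0.935% of the genes tested) and rod bipolar cells 4 (0.0429%). Cones had 3 (0.0318%), amacrine cells 3 (0.0269%), rods 1 (0.00804%), ganglion cells 1 (0.0175%) and cone bipolar cells 0 (0%). The median log2 fold change of the members over these tests was -0.03, and that of all genes lay between -0.01 and 0.01 in each class. Standard errors of the members ran between 0.06 and 0.54.

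**Figure D5:**
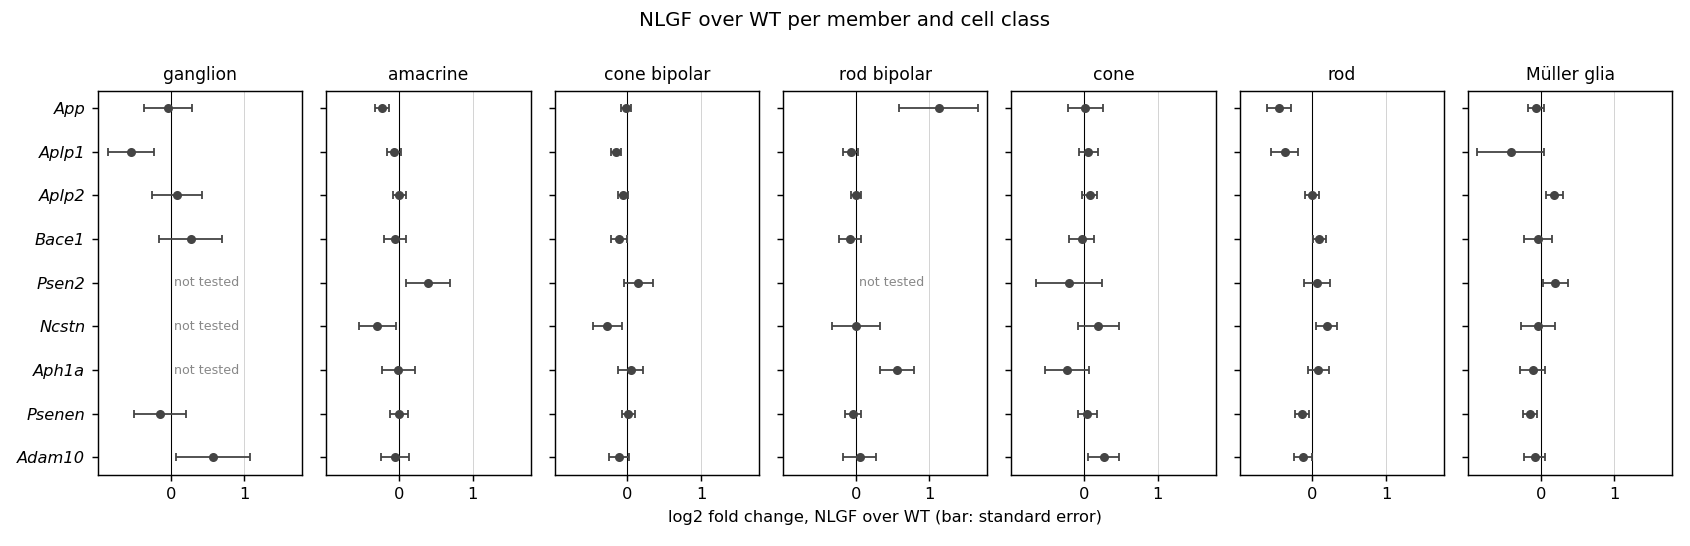
Log2 fold change, NLGF over WT, of each member in the 7 tested classes, with bars of 1 standard error. No member passed an adjusted p of 0.05, and App in rod bipolar cells, with 1 App UMI in the WT female, lies farthest from 0. Members below the count filter of edgeR are marked as not tested.

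The App change did not pass in cone bipolar cells, cones, ganglion cells or Müller glia. Müller glia held 296 and 291 CPM in NLGF and 331 and 268 CPM in WT retinas, with a log2 fold change of -0.07 ± 0.11 (adjusted p = 0.888). In cone bipolar cells the change was -0.02 ± 0.07 (adjusted p = 0.992), in ganglion cells -0.04 ± 0.32 (adjusted p = 0.999) and in cones 0.02 ± 0.24 (adjusted p = 0.996). The cone value rested on the 17-cell cluster with bipolar markers, which held 9 and 12 App UMIs in NLGF and 6 and 33 in WT retinas. Without it cones had 25.6 and 31.9 CPM in NLGF and 23.6 and 23.8 CPM in WT retinas, which did not overlap, and the change was 0.27 ± 0.24 (adjusted p = 0.905, edgeR, in a fit that called 0.0327% of its genes). Amacrine cells held 287 and 325 CPM in NLGF and 361 and 349 CPM in WT retinas. Both NLGF values were below both WT values there, at -0.23 ± 0.09 (adjusted p = 0.999, edgeR). Summed cone bipolar markers in amacrine cells were 23.0 to 32.5 CPM in NLGF and 51.7 to 63.9 CPM in WT retinas, and rod markers 1476 to 1575 CPM in NLGF and 1811 to 2410 CPM in WT retinas, both without overlap. Their part in the App difference was not tested. Summed over all kept cells, App stood at 204 and 235 CPM in NLGF and 242 and 237 CPM in WT retinas (-0.17 ± 0.07, adjusted p = 0.490), in a fit that called 5 genes (0.0309%). Cone bipolar cells, which are high in App, made up 4.26% and 4.76% of kept cells in NLGF and 5.07% and 5.52% in WT retinas, and the part of this in the sum was not tested.

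In rods App was at 12.8 and 15.7 CPM in NLGF and 17.3 and 19.8 CPM in WT retinas, without overlap. The log2 fold change was -0.46 ± 0.17 (adjusted p = 0.528, edgeR), and without the WT female it was -0.59 with an adjusted p of 0.0383. That fit, in which WT is 1 library assumed to vary like the other group, called 838 of 13012 genes (6.44%). Summed cone bipolar markers in the same rods were 35.3 and 39.4 CPM in NLGF and 46.6 and 50.6 CPM in WT retinas, also without overlap. The deepest rod cluster, with 8.7 CPM of App, had 1018 and 1222 cells in NLGF and 1370 and 1963 in WT retinas. The cluster with 36.4 CPM had 414 and 455 cells in NLGF and 139 and 953 in WT retinas. The part of the markers and of the cluster make-up in the App difference was not tested.

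In rod bipolar cells App rested on few molecules. App had 18 and 16 UMIs in 159 and 177 NLGF cells, and 1 and 16 UMIs in 172 and 194 WT cells. One cell held 11 of the 18 UMIs in the NLGF female, 6 of 16 in the NLGF male and 4 of 16 in the WT male. Without the top cell of each library 7 and 10 UMIs remained in NLGF and 0 and 12 in WT retinas, so the genotypes then overlapped. The log2 fold change was 1.12 ± 0.54 (adjusted p = 0.761, edgeR), and without the WT male, which leaves only the library with 1 UMI as WT, it was 3.90 with an adjusted p of 0.0431 in a fit that called 36 of 9722 genes (0.37%). Cone bipolar markers in these cells summed to 115 and 64.1 CPM in NLGF and 51.6 and 58.4 CPM in WT retinas. The difference in the App change between rod bipolar cells and rods was 1.61 ± 0.48 on the log2 scale (adjusted p = 0.565, edgeR interaction term). That fit called 2 of 12649 genes. This pair of classes was picked from these same values, because App moved opposite ways in them without overlap.

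No other member passed between the genotypes. Aplp1 in cone bipolar cells was at 308 and 297 CPM in NLGF and 334 and 327 CPM in WT retinas (-0.15 ± 0.06, adjusted p = 0.722). Over all kept cells Aplp1 stood at 120 and 134 CPM in NLGF and 144 and 141 CPM in WT retinas (-0.21 ± 0.06, adjusted p = 0.400), beside the lower share of cone bipolar cells in NLGF given above, whose part was not tested. Aph1a in rod bipolar cells was at 30.3 and 36.9 CPM in NLGF and 24.7 and 20.98 CPM in WT retinas (0.56 ± 0.23, adjusted p = 0.728). None of these passed, although the genotypes did not overlap in any of the 3.

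The farthest values of the other classes were each within 2 standard errors of 0. They were Aplp1 in Müller glia (-0.41 ± 0.45, on 10 to 12 UMIs a library), Ncstn in cone bipolar cells (-0.27 ± 0.20), Psen2 in amacrine cells (0.40 ± 0.30), Adam10 in cones (0.27 ± 0.21) and Adam10 in ganglion cells (0.58 ± 0.50), where the WT female had 11 cells. The genotypes did not overlap in 20 of the 63 member and class pairs (31.7%), 11 higher and 9 lower in NLGF, and between 31.1% and 43.1% of all tested genes of a class did not overlap either. Psen2 in rod bipolar cells and Psen2, Ncstn and Aph1a in ganglion cells were under the count filter. Psen2 in rod bipolar cells was at 5.17 and 5.82 CPM in NLGF and 2.12 and 2.84 CPM in WT retinas, from 7 and 9 UMIs and from 3 and 5 UMIs.

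Müller glia and rods were compared for the genotype effect itself. The App change was higher in Müller glia than in rods by 0.41 ± 0.17 on the log2 scale (adjusted p = 0.439, edgeR interaction term with library as a block). Of the 9 members 0 had an adjusted p under 0.05, and 0.426% of all 13610 genes were called. App alone of the members had an unadjusted p under 0.05, and the count of all genes at that level was not taken. Without the WT female App (0.67, adjusted p = 0.0165) and Aplp2 (0.34, adjusted p = 0.0336) passed, in a fit with 1 WT library that called 214 of 13797 genes (1.55%).

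The wider pathway was covered by 3 lists that were looked at in the same fits. Of 14 other secretase genes and regulators, 8 to 12 were tested in a class, and none rose or fell in any. Of 18 APP adaptors and sorting genes, 12 to 18 were tested, and none rose or fell. Of 16 other secretase substrates, 7 to 13 were tested and 1 rose. That was Epha4 in Müller glia, an ephrin receptor that gamma-secretase cuts, at 348 and 317 CPM in NLGF and 184 and 211 CPM in WT retinas (0.70 ± 0.10, adjusted p = 0.00269). Both NLGF libraries lay above both WT libraries, and the call was lost when either WT library was left out (0.61, adjusted p = 0.622 without the WT female, and 0.82, adjusted p = 0.653 without the WT male). Both of those fits called 0 genes in Müller glia, of 11577 and of 11561 tested, with 888 and 854 at an unadjusted p under 0.05. List medians by class ran between -0.22 and 0.16, beside all-gene medians between -0.01 and 0.01.

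Summed over all kept cells, Epha4 (0.42 ± 0.09, adjusted p = 0.313) and the gamma-secretase substrate Notch2 (0.47 ± 0.15, adjusted p = 0.402) were nearest to the threshold. Müller glia made up 5.60% and 4.75% of kept cells in NLGF and 3.04% and 4.63% in WT retinas, and the part of this in both values was not tested. In the other classes no gene of these lists passed, and the 2 with the lowest p of each class are given. Rods had Numb (0.24 ± 0.10, adjusted p = 0.534), an endocytic adaptor, and Adam17 (0.33 ± 0.14, adjusted p = 0.536), a second alpha-secretase. Adam17 was at 22.0 and 21.5 CPM in rods of NLGF and 15.9 and 16.8 CPM in rods of WT retinas, and was also on the higher side in rod bipolar (0.95 ± 0.46, adjusted p = 0.761) and cone bipolar cells (0.60 ± 0.25, adjusted p = 0.722). Rod bipolar cells further had the BACE1 substrate Nrg1 (0.24 ± 0.11, adjusted p = 0.736), and cone bipolar cells Rer1 (-0.23 ± 0.11, adjusted p = 0.742), which retains unassembled gamma-secretase parts. Cones had Klc1 (-0.38 ± 0.12, adjusted p = 0.729), a kinesin light chain, and Clstn3 (-0.50 ± 0.21, adjusted p = 0.794). Amacrine cells had Clstn2 (-2.36 ± 0.64, adjusted p = 0.435), with 5 and 1 UMIs in NLGF and 16 and 13 in WT retinas, and Apbb2 (0.33 ± 0.17, adjusted p = 0.999). Ganglion cells had Dab1 (-2.36 ± 0.62, adjusted p = 0.999), with 5 and 5 UMIs in NLGF and 17 and 12 in WT retinas, and Apba2 (0.64 ± 0.37, adjusted p = 0.999).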

How the data were processed

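For each library the authors deposited 1 matrix of UMI counts, not normalized. The software is Cell Ranger 6.1.1 per the file headers and Cell Ranger 3.1.0 per the submitters' processing notes, which also list STAR and mm10. The kit end and the counting of intronic reads are not given in the sources used here. The members and gene lists were chosen with earlier results of these data known.

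Of the barcodes, 33329 passed a minimum of 300 genes and a maximum of 20% mitochondrial UMIs. Scrublet's own threshold called only 13 doublets and was not used. Instead the top 6% of doublet scores in each library were removed (1998 cells). Counts were scaled to 10000 UMIs per cell and log transformed, and Leiden clustering (scanpy 1.11.5, resolution 1) on 20 neighbours in 30 principal components of 2000 variable genes gave 12 clusters. The members and wider lists (57 genes) and sex-linked genes were barred from the variable genes. Of the 12 clusters 2 mixed classes and were clustered again, which gave 39. Clusters were named by the class whose markers had the highest mean relative level (at least 0.3, or 0.5 to join a class already held, with at least 3 detected markers) or another class with more markers among its top 10 genes. These limits and the second round were set after the data were seen. Every class name stands for marker likeness only (Müller-like), and 4 clusters stayed unnamed.

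UMIs were summed per library and class and tested with edgeR 4.0.16 (R 4.3.3) by quasi-likelihood F tests with TMM factors, filterByExpr and Benjamini-Hochberg adjustment over all genes of a fit, with a threshold of 0.05. The standard error of a fold change is its absolute log2 value over the root of its F statistic. The genotype fits of Müller glia, rods and ganglion cells were also run on simulated counts, and the outcome is not given here. DESeq2 1.42.0 and other settings were alternatives. The text names the 9 members in every class and, from the wider lists, every gene past the threshold of a class or otherwise the 2 with the lowest unadjusted p. Poisson intervals and shares cover counting error only. Fold changes are printed for App in every class, for members with an unadjusted p under 0.05 and for the largest change of a class. Cone groups, amacrine clusters and rod clusters were picked out after their values were seen. The App sequence is from GENCODE M21 on GRCm38.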

Additional observations from a re-analysis of the deposited data

How the results depend on the processing

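Across DESeq2, library totals in place of TMM factors, no filter on low counts, the replicate block by sex, doublets kept and counts thinned to the smallest library, the number of members called between the genotypes stayed at 0. It was 0 to 1 when 1 library was left out, and 0 to 2 members were called for the Müller glia and rod contrast of genotype effects. All such calls came without a WT library, in fits that called 6.44% (rods), 0.37% (rod bipolar cells) and 1.55% (contrast) of their genes. Class contrasts called ranged from 37 to 44, against 38, and 3 were lost without TMM factors, namely Aplp2 in amacrine cells, Bace1 in rod bipolar cells and Psenen in cone bipolar cells. Aph1a in cones was lost without the NLGF male. App changes near 0 turned sign, to 0.0042 in cone bipolar and 0.022 in ganglion cells without TMM factors and to 0.0094 in ganglion cells without the filter. With 1 library left out, App ranged from -0.21 to 0.084 in Müller glia, -0.31 to 0.40 in cones, -0.083 to 0.043 in cone bipolar cells and -0.29 to 0.19 in ganglion cells. The largest change that turned sign in any member was 0.27. The cause was not tested. Epha4 in Müller glia was lost without the filter (0.70, adjusted p = 0.197).

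Same-sex libraries of the 2 genotypes deviated together, with a correlation of 0.24 over genes for all cells and 0.09 to 0.32 by class. The labels do not tie animals to one another, and the replicate block by sex called 0 members. More genes of all kinds were called with that block in most classes. Müller glia had 284 (104 without it), cones 48 (3), rod bipolar cells 39 (4), cone bipolar cells 30 (0) and amacrine cells 20 (3). Ganglion cells had 2 (1) and rods 1 (1), and the sum of all cells had 0 (5).

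Levels of members used 2 alternatives, cells with at least 1000 UMIs and the mean over cells of UMIs per 10000. Of 126 such levels 96 moved by less than 1 SD over libraries and 30 by more. The highest class held for every member with deep cells. With means over cells it passed to cones for Aplp1 and to ganglion cells for Aph1a. Means over cells moved 6 levels by over 1.5 times. In ganglion cells they gave 6.02 CPM of Psen2 (against 21.3), 50.3 of Aph1a (against 17.9), 52.2 of Psenen (against 104), 20.2 of Adam10 (against 36.0) and 36.7 of Bace1 (against 58.7), and in Müller glia 14.8 of Aplp1 (against 5.96).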
